A study of Mus musculus with 12 samples.

Results

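The nitric oxide and cyclic GMP (cGMP) genes described here are 10 genes of the 23127 in the deposited expression table: Nos3, Nos1, Nos2, Gucy1a1, Gucy1b1, Prkg1, Pde5a, Ddah1, Ddah2 and Arg2. They were taken by gene symbol, each matched 1 row, and all 10 reached the mean of 1 CPM (the share of a library's assigned reads, on a scale of 1000000) over the libraries that a gene needed to be tested, Nos1 through a single library. Whole lung of 12 C57BL6/J mice was profiled by bulk RNA sequencing, with 4 mice in each of 3 groups. The 5-week and 2-week mice drank water with L-NAME at 0.5 g/L and ate a high-fat diet of 60% lipid for 5 or 2 weeks (L-NAME/HFD). The 0-week mice are labelled as controls, and the labels state neither their water nor their diet. For a single-cell experiment, not analysed here, the series names controls on a low-fat diet without L-NAME; whether the 0-week mice ate such a diet is not stated. The labels give no age or sex for any group. Since the only controls were at 0 weeks, treatment and time on study cannot be told apart, and neither can L-NAME and the diet. The series concerns pulmonary vascular remodelling in heart failure with preserved ejection fraction.

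Nitric oxide is made from arginine by 3 synthases: the endothelial (Nos3), the neuronal (Nos1, also found in skeletal muscle fibres) and the inducible enzyme (Nos2). It diffuses to neighbouring cells and activates soluble guanylyl cyclase, a dimer of the alpha-1 and beta-1 subunits that Gucy1a1 and Gucy1b1 encode. The cGMP so made activates the kinase of Prkg1, which relaxes vascular smooth muscle, and is broken down by the phosphodiesterase of Pde5a, the target of sildenafil. Ddah1 hydrolyses asymmetric dimethylarginine, an endogenous synthase inhibitor, Ddah2 is its paralog, and the mitochondrial arginase of Arg2 uses the same substrate as the synthases. L-NAME is an arginine analogue that inhibits the synthases, and in the lung the pathway is known for keeping pulmonary vascular tone low.

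The depth, estimated from the spacing of the lowest values, was 26000000 to 34100000 assigned reads in each library, so that 1 read was worth between 0.0293 and 0.0384 CPM. The libraries held the lung endothelial markers throughout: the 20 genes of that list (among them Pecam1 and Cdh5) summed to between 7240 and 9070 CPM, with none at 0. Some libraries held transcripts of other tissues. The 2-week replicate 3 had 111 genes, and control replicate 2 had 81 genes, at over 5 times their value in every other library. The 19 listed genes of skeletal muscle summed to 13525 CPM in 2-week replicate 3, to 633 CPM in control replicate 2, and to between 24.8 and 72.1 CPM in the other 10 libraries. Control replicate 2 also had the highest sum of the 11 adipocyte genes, 2544 CPM, against at most 521 CPM in any other library. Control replicate 4 had 23 genes at over 5 times their value in every other library, and its 13 listed liver genes summed to 89.6 CPM, against at most 11.8 CPM in any other library. In 5-week replicate 3 the 8 red cell genes summed to 16212 CPM, the highest of the 12 libraries.

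Set per kilobase of exon, the levels of the 10 genes fell into 3 tiers. The upper tier held Ddah2 with a median of 49.4 CPM per kb over the 12 libraries, Gucy1b1 with 47.5, Gucy1a1 with 33.5 and Pde5a with 28.6. The middle tier held Ddah1 with a median of 8.67 CPM per kb, Nos3 with 7.53, Arg2 with 3.4 and Prkg1 with 3.22. Nos2 had a median of 1.07 CPM per kb and Nos1 of 0.0278. The ranges of neighbouring tiers did not overlap from Pde5a to Ddah1 or from Prkg1 to Nos2, but neighbours within a tier overlapped in range. Nos1 reached the range of Nos2 only through 2-week replicate 3, at 1.58 CPM per kb. Its next highest value was 0.0854 CPM per kb, against a lowest Nos2 value of 0.687. Within single libraries, Gucy1b1 lay above Gucy1a1 in 12 of 12 and Gucy1a1 above Pde5a in 12 of 12. Ddah2 lay above Gucy1b1 in 8 of 12, Ddah1 above Nos3 in 9 of 12, Nos3 above Arg2 in 12 of 12, and Arg2 above Prkg1 in 7 of 12. Nos2 lay above Nos1 in 11 of 12.

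**Figure D1:**
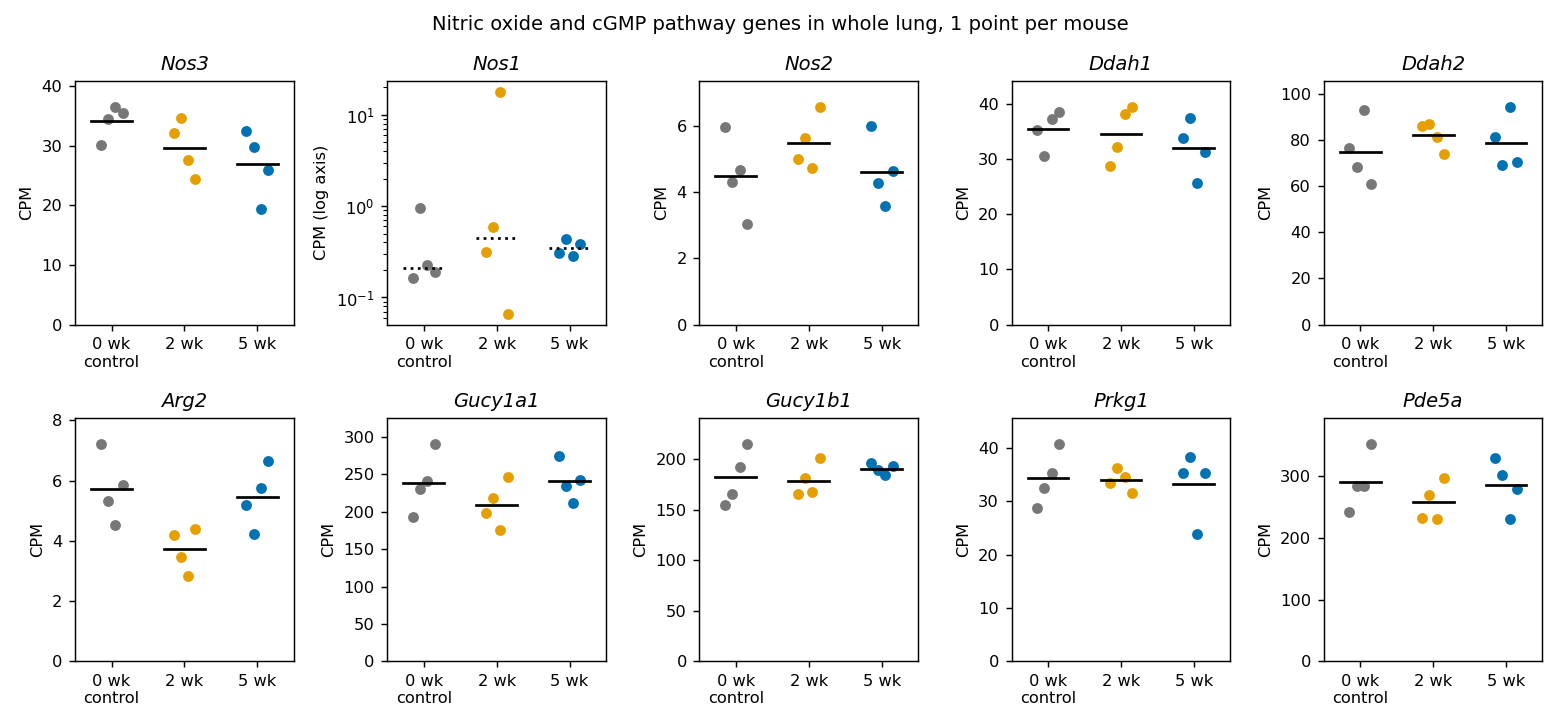
CPM of the 10 genes in each library, grouped by 0, 2 and 5 weeks; each point is 1 mouse, solid bars are group means, and Nos1 is on a log axis with dotted bars at group medians. The 4 Arg2 values at 2 weeks lie between 2.85 and 4.38 CPM, below the 4 control values, and 1 Nos1 value of 17.7 CPM stands far above the other 11.

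None of the 10 genes passed an adjusted p of 0.05 between any of the times (limma on log2(CPM + 1), Benjamini-Hochberg over 15562 genes). Leaving out Nos1, adjusted p lay between 0.389 and 0.99 for 2 weeks against 0 weeks, between 0.554 and 0.963 for 5 weeks against 0 weeks, and between 0.336 and 0.936 for 5 weeks against 2 weeks. The share of all genes tested that passed was 0% in each of the 3 comparisons. At an unadjusted p under 0.05, 1 of the 10 genes stood at 2 weeks against 0 weeks (Arg2), beside 1438 of all genes tested or 9.24%. Likewise 1 of the 10 stood at 5 weeks against 0 weeks (Nos3, beside 1343 genes or 8.63%) and 1 of the 10 at 5 weeks against 2 weeks (Arg2, beside 1696 genes or 10.9%). Those shares are close to the share of 1 in 10. Groups did not overlap for 1 of the 10 genes at 2 weeks against 0 weeks, beside 5.32% of all genes, for 0 of the 10 at 5 weeks against 0 weeks, beside 5.01%, and for 0 of the 10 at 5 weeks against 2 weeks, beside 4.94%. A moderated F-test over the 3 groups also called 0 of the 10, and 0 of all genes, 1681 of which (10.8%) had an unadjusted p under 0.05. No other setting or set of libraries that was tried called one of the 10. Again without Nos1, the 95% intervals of the ratios of 2 weeks to 0 weeks reached from 0.554 to 1.55, those of 5 weeks to 0 weeks from 0.627 to 1.34, and those of 5 weeks to 2 weeks from 0.664 to 1.73, on the scale of CPM + 1. In bulk lung, fewer cells of a type and less RNA per cell cannot be told apart in any of these values.

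**Figure D2:**
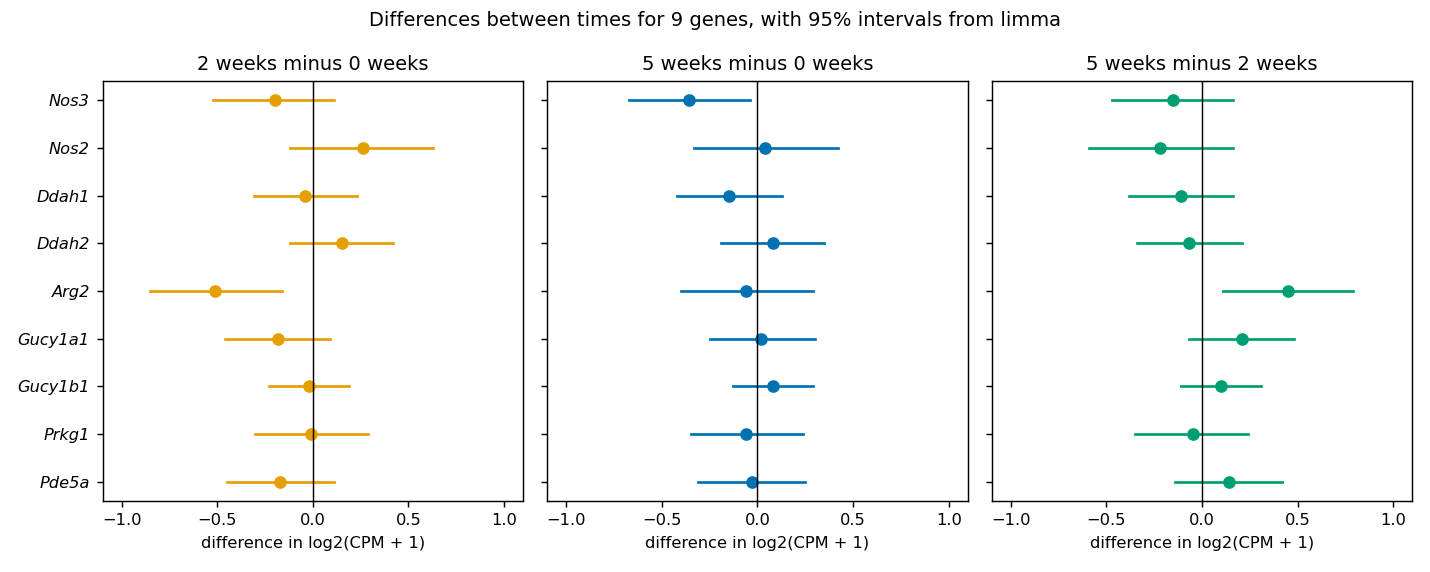
Differences between times for 9 of the 10 genes (Nos1 is left out, since it reached the filter through 1 library) in log2(CPM + 1), with points for the estimate and lines for the 95% interval from limma. The intervals of Arg2 leave out 0 in 2 panels, from -0.85 to -0.16 at 2 weeks against 0 weeks and from 0.11 to 0.79 at 5 weeks against 2 weeks, and that of Nos3 leaves it out at 5 weeks against 0 weeks; no adjusted p passed.

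Nos3 (ENSMUSG00000028978, chromosome 5, 24569808 to 24589472 on the plus strand, position from the deposited table, which names no build) read 30.1, 34.5, 36.5 and 35.6 CPM in the controls, 32.1, 34.7, 27.6 and 24.4 CPM at 2 weeks, and 32.5, 29.8, 19.4 and 25.9 CPM at 5 weeks. The lowest value of the 12 belonged to 5-week replicate 3, the treated ranges were wider than that of the controls, and the groups overlapped in every comparison. Nos3 averaged 26.9 ± 5.69 CPM at 5 weeks and 34.2 ± 2.85 CPM in controls (SD, n = 4 each), a log2 difference of -0.36 ± 0.15 (SE) with an adjusted p of 0.554 by limma. Without 5-week replicate 3 the difference was -0.21, with an adjusted p of 0.915 in the same limma test. At 2 weeks Nos3 averaged 29.7 ± 4.59 CPM (SD, n = 4), a log2 difference from controls of -0.20 ± 0.15 (SE; limma adjusted p 0.658).

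Nos3 was then set against the mean of the 20 endothelial genes of the same library, as a difference in log2(CPM + 1). The value was -3.07, -3.06, -3.60 and -3.36 at 5 weeks, against -3.02, -2.76, -3.03 and -2.95 in controls. At 2 weeks it was -3.10, -3.05, -3.27 and -3.45. All 8 treated mice lay below all 4 controls, and 4 of the 8 lay between -3.10 and -3.05, next to the lowest control at -3.03. No share of all genes with such an order against the same list is given, so how common it is cannot be said. The group means differed by -0.33 ± 0.14 (SE) at 5 weeks and by -0.28 ± 0.11 (SE) at 2 weeks, each with an exact two-sided permutation p of 0.0286, the smallest that 4 against 4 mice can give, and of 0.143 after adjustment over the 15 such tests. Both comparisons use the same 4 controls. Without 5-week replicate 3 the 5-week difference was -0.22, and without control replicate 2, 2-week replicate 3 and 5-week replicate 3 it was -0.16 at 5 weeks and -0.20 at 2 weeks, where exact p could not go below 0.1. The red cell list summed to between 1510 and 16212 CPM at 5 weeks and between 1236 and 2604 CPM in controls, and 6 of its 6 tested genes had an unadjusted limma p under 0.05 at 5 weeks against controls, all of them higher, beside 8.63% of all genes. Of 11 tested neutrophil genes, 8 were higher and 1 lower at such a p (median log2 difference of the list 0.82), with sums of 216 to 476 CPM at 5 weeks and 180 to 349 CPM in controls. Of 11 monocyte genes, 7 were higher at such a p (median 0.75). The monocyte list summed to 1588 to 2041 CPM at 5 weeks and 1771 to 1989 CPM in controls. For all 3 lists the sums at 5 weeks overlapped those of controls. None of these genes passed the adjusted threshold, and the part of the 3 lists in the Nos3 values was not tested. The endothelial list itself had a median log2 difference of -0.02 at 5 weeks and 0.09 at 2 weeks against controls, beside 0.02 for all genes in both comparisons. At 2 weeks 16 of its genes were higher than in controls and 4 lower, beside 55.1% of all genes higher. At 5 weeks 7 were higher and 13 lower, beside 55%.

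**Figure D3:**
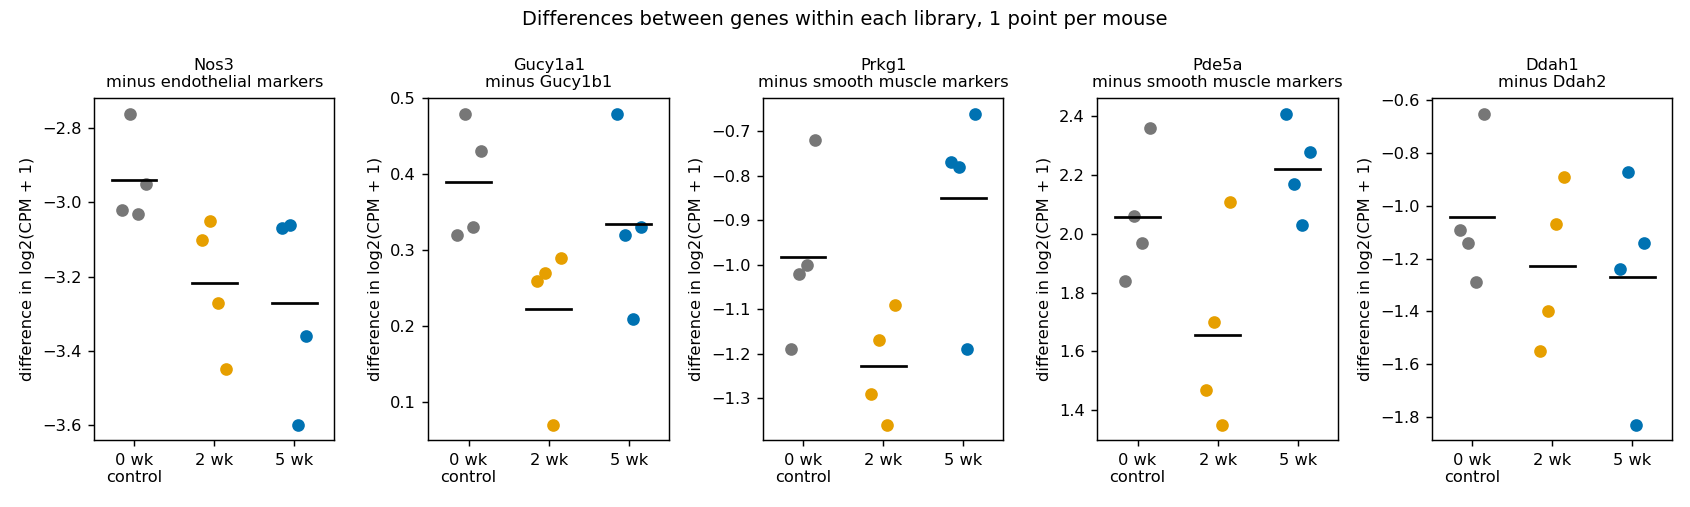
Differences in log2(CPM + 1) between a gene and a marker list or its partner within each library, by 0, 2 and 5 weeks; points are mice, bars are group means and the vertical axes do not start at 0. Nos3 against endothelial markers lies between -3.03 and -2.76 in controls and lower in the 8 treated mice; Gucy1a1 against Gucy1b1 lies between 0.32 and 0.48 in controls and between 0.07 and 0.29 at 2 weeks.

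Nos1 (ENSMUSG00000029361, chromosome 5, 117919097 to 118096905, plus strand) was near the limit of what the depth can show in most lungs. It read 0.164, 0.952, 0.227 and 0.189 CPM in the controls, 0.312, 0.592, 17.7 and 0.0665 CPM at 2 weeks, and 0.307, 0.431, 0.281 and 0.381 CPM at 5 weeks. The value of 17.7 CPM, about 552 reads by the estimated depth, was 18.5 times the next highest. By the same estimate the 11 other libraries held between about 2 and 25 reads each. The gene passed the filter of 1 CPM only through that library: its mean was 1.8 CPM with it and 0.355 CPM without. The groups overlapped. Because of that single library, no fold change or test of Nos1 is given as a result. An alternative value with a pseudocount of 0.1 is listed further on for its sign alone.

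The library with the high Nos1 value, 2-week replicate 3, was also the one with the high skeletal muscle sum. Control replicate 2 was second in both. The genes whose levels went most closely with Nos1 over the 12 libraries were Mylf-ps, a myosin light chain pseudogene, Tmod4, the tropomodulin of skeletal muscle, and Scn4a, the sodium channel of skeletal muscle, each with a Pearson r of 0.99. Those r values are largely set by 2-week replicate 3, where Nos1 read 17.7 CPM against at most 0.952 CPM elsewhere, and none without it is given. Spearman's rho, which uses ranks alone, was 0.55 for Mylf-ps, 0.86 for Tmod4 and 0.69 for Scn4a. In 2-week replicate 3 Nos1 made up 35.3% of the summed CPM of the 3 synthase genes, without regard to gene length. Per kilobase of exon it read 1.58 CPM there, beside 6.67 for Nos3 and 1.07 for Nos2.

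**Figure D4:**
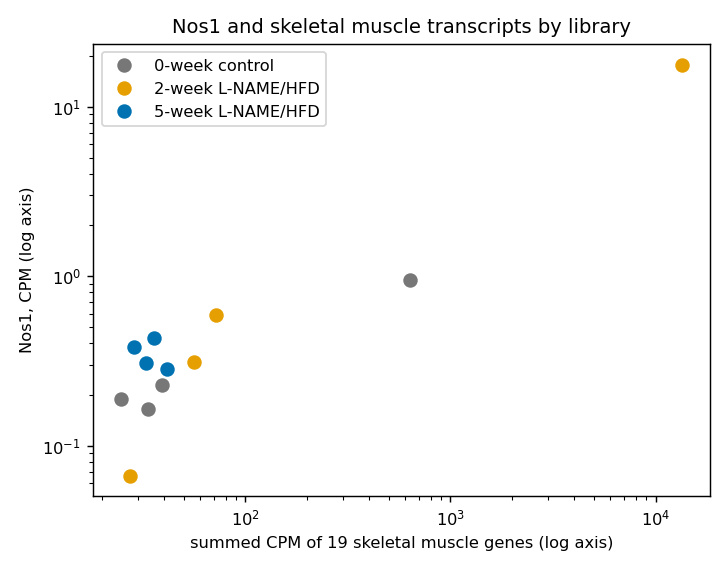
Nos1 against the summed CPM of 19 skeletal muscle genes in each of the 12 libraries, both on log axes, coloured by 0, 2 and 5 weeks. The 2-week replicate 3 lies at 13525 and 17.7 CPM and control replicate 2 at 633 and 0.952 CPM; the other 10 libraries lie at or below 72.1 CPM of muscle genes.

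Nos2 (ENSMUSG00000020826, chromosome 11, 78811613 to 78851080, plus strand) averaged 4.5 ± 1.21 CPM in controls, 5.49 ± 0.815 CPM at 2 weeks and 4.62 ± 1.01 CPM at 5 weeks (SD, n = 4 each). The groups overlapped in all comparisons. The highest value was 6.57 CPM in 2-week replicate 4 and the lowest 3.03 CPM in control replicate 4. The log2 difference was 0.26 ± 0.17 (SE) at 2 weeks and 0.04 ± 0.17 (SE) at 5 weeks against controls (limma adjusted p 0.643 and 0.951).

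Among the genes that act upstream of the synthases, Arg2 (ENSMUSG00000021125, chromosome 12, 79177551 to 79203075, plus strand) was lowest at 2 weeks. It read 7.22, 5.32, 4.53 and 5.84 CPM in controls, 4.21, 3.46, 2.85 and 4.38 CPM at 2 weeks, and 5.19, 4.24, 5.75 and 6.65 CPM at 5 weeks. All 4 mice at 2 weeks lay below all 4 controls, as did 1.95% of all genes tested, and the 2-week and 5-week ranges overlapped between 4.24 and 4.38 CPM. Arg2 averaged 3.72 ± 0.71 CPM at 2 weeks and 5.73 ± 1.13 CPM in controls (SD, n = 4 each), a log2 difference of -0.51 ± 0.16 (SE) with an unadjusted p of 0.00711 and an adjusted p of 0.389 by limma. It averaged 5.46 ± 1.01 CPM at 5 weeks, a log2 difference from 2 weeks of 0.45 ± 0.16 (SE; limma adjusted p 0.336) and from controls of -0.06 ± 0.16 (SE; limma adjusted p 0.924). Both macrophage lists also had their lowest median sum at 2 weeks, and so had the neutrophil, monocyte, fibroblast and alveolar type 1 lists. The 12 alveolar macrophage genes summed to a median of 983 CPM in controls (514 to 1299), 536 CPM at 2 weeks (484 to 987) and 977 CPM at 5 weeks (844 to 1077). Their median log2 difference was -0.60 at 2 weeks against controls, where 2 of the 12 had an unadjusted limma p under 0.05, both lower, and 0.72 at 5 weeks against 2 weeks, where 8 of the 12 did, all higher. The 11 interstitial macrophage genes summed to between 1059 and 1220 CPM at 2 weeks and between 1399 and 1971 CPM in controls, with a median log2 difference of -0.46 and 6 of the 11 lower at an unadjusted p under 0.05. At 5 weeks they summed to between 1157 and 1294 CPM, and 1 of the 11 was higher than at 2 weeks at such a p. The neutrophil list summed to a median of 191 CPM in controls, 140 CPM at 2 weeks and 349 CPM at 5 weeks. At 5 weeks against 2 weeks, 10 of its 11 tested genes were higher at such a p, as were 9 of the 11 monocyte genes. The share of all genes at such a p was 9.24% at 2 weeks against 0 weeks and 10.9% at 5 weeks against 2 weeks. None of the macrophage, neutrophil or monocyte genes was at 0 in any library, and none of those tested passed the adjusted threshold. The part of these lists in the Arg2 values was not tested.

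The gene Vti1b overlaps Arg2 on the other strand and averaged 67.9 CPM over the libraries. The counting is not stated to use strand, so reads of the pair cannot be told apart where they overlap.

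Ddah1 (ENSMUSG00000028194, chromosome 3, 145464430 to 145600032, plus strand) averaged 35.4 ± 3.51 CPM in controls, 34.6 ± 5.07 CPM at 2 weeks and 32 ± 4.91 CPM at 5 weeks (SD, n = 4 each). Ddah2 (ENSMUSG00000007039, chromosome 17, 35278011 to 35281071, plus strand) averaged 74.6 ± 13.7, 81.9 ± 5.89 and 78.7 ± 11.7 CPM in the same order. Groups overlapped for both genes. The log2 difference of 5 weeks from controls was -0.15 ± 0.13 (SE) for Ddah1 and 0.08 ± 0.13 (SE) for Ddah2, neither past the limma threshold (adjusted p 0.738 and 0.852). The pair stood at opposite ends in 5-week replicate 3, which had the lowest Ddah1 value of the 12 libraries, 25.7 CPM, and the highest Ddah2 value, 94.1 CPM. The extremes of that library were not limited to this pair: it also had the lowest Nos3 value, 19.4 CPM, and the lowest Prkg1 value, 23.9 CPM. That library gave a Ddah1 to Ddah2 difference of -1.83 in log2(CPM + 1), against values between -1.55 and -0.65 in the other 11. The group difference was -0.23 ± 0.25 (SE) at 5 weeks against controls (exact two-sided permutation p 0.429). Rpl36a-ps2, a ribosomal protein pseudogene with a mean of 56.3 CPM, lies within Ddah1 on the same strand, and the counting is not stated to keep them apart.

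Gucy1a1 (ENSMUSG00000033910, chromosome 3, 81999734 to 82053096) and Gucy1b1 (ENSMUSG00000028005, chromosome 3, 81939313 to 81981996) lie next to each other on the minus strand, with 17737 bases and 0 genes of the table between them. Pde5a (ENSMUSG00000053965, 122522596 to 122653023, plus strand) lies on the same chromosome. These 3 genes varied together between lungs, and the sequence around their RefSeq transcript starts is shown here for that reason. A RefSeq window of 300 bases, from 250 before to 50 after a transcript start, was at hand for 7 of the 10 genes on GRCm38.p6. The motifs searched on both strands were the GC box GGGCGG, the CCAAT box CCAAT, the TATA box TATAAA, the AP-1 site TGANTCA, the palindromic E-box CACGTG and the CArG box, none of which overlap each other here. Capitals mark the matches, and each sequence reads 5′ to 3′ on the gene's strand.
Gucy1a1 window at chr3:82145601-82145900, minus strand: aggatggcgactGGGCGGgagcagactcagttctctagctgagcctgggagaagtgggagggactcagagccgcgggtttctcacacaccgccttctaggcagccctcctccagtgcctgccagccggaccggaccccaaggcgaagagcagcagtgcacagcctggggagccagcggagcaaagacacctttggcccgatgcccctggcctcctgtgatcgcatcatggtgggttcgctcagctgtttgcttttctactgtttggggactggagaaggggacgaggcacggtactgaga
Gucy1a1 window at chr3:82145024-82145323, minus strand: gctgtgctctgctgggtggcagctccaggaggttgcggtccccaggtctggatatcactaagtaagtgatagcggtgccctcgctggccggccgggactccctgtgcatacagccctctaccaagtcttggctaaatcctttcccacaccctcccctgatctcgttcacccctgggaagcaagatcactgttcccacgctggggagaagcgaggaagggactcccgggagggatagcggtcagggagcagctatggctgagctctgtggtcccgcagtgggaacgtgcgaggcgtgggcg
Gucy1b1 window at chr3:82074662-82074961, minus strand: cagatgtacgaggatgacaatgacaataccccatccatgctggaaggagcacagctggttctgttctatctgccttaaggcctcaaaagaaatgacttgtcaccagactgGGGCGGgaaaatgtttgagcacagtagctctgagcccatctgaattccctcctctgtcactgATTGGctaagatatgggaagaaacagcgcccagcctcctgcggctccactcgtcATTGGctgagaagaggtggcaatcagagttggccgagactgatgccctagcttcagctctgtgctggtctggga
Pde5a window at chr3:122728908-122729207, plus strand: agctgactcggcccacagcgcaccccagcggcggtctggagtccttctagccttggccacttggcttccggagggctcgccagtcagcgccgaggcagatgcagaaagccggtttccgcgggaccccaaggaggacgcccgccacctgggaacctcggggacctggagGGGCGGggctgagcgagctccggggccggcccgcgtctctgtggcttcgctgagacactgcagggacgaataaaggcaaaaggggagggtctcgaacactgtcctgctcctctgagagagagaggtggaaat

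A GC box stood in 1 of the windows of Gucy1a1 and in those of Gucy1b1 and Pde5a, and in 35.7% of the 32851 RefSeq windows of the mouse. It also stood in the window of Ddah2 and in each window of Prkg1, but not in those of Ddah1 and Nos1. The end of the Gucy1a1 window with the GC box, and that of the Gucy1b1 window, was not found near the start of a GENCODE M21 transcript of the gene. For the other Gucy1a1 window and that of Pde5a it was found there. Gucy1b1 also held 2 CCAAT boxes, seen as ATTGG on the printed strand, and 37.4% of windows hold at least 1. None of the 4 printed windows held the TATA box (13.6% of windows), the AP-1 site (7.81%), the E-box (7.15%) or a CArG box (1.63%). These matches are descriptions of the letters in the window.

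Gucy1a1 read 193, 231, 241 and 291 CPM in the controls, 199, 218, 176 and 246 CPM at 2 weeks, and 275, 235, 212 and 243 CPM at 5 weeks. Gucy1b1 read 155, 165, 192 and 215 CPM in the controls, 165, 181, 167 and 201 CPM at 2 weeks, and 196, 189, 184 and 193 CPM at 5 weeks. Control replicate 4, the library with liver transcripts, was the highest for both genes, 5-week Gucy1b1 values lay within a narrow band, and the groups overlapped. Gucy1a1 averaged 239 ± 40.1 CPM in controls, 210 ± 29.7 CPM at 2 weeks and 241 ± 26 CPM at 5 weeks (SD, n = 4 each). Its log2 difference was -0.18 ± 0.13 (SE) at 2 weeks and 0.02 ± 0.13 (SE) at 5 weeks (limma adjusted p 0.648 and 0.963). For Gucy1b1 the log2 difference was -0.02 ± 0.10 (SE) at 2 weeks and 0.08 ± 0.10 (SE) at 5 weeks (limma adjusted p 0.962 and 0.815).

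Over the 12 libraries the log2(CPM + 1) values of Gucy1a1 and Pde5a had a Pearson r of 0.94 (Spearman's rho 0.90). Among all 15562 genes, Pde5a ranked 2 in likeness to Gucy1a1, after Zfp758. The coefficient was 0.94 with the group means removed. Gucy1a1 and Gucy1b1 had an r of 0.85 (rho 0.89), with Gucy1b1 at rank 48, and Gucy1b1 and Pde5a had an r of 0.77 (rho 0.71). Without the 2 libraries farthest from the median of Gucy1a1, r was 0.91 for Gucy1a1 with Pde5a and 0.81 for Gucy1a1 with Gucy1b1. Without the 2 farthest from the median of Gucy1b1, r was 0.66 for Gucy1b1 with Pde5a. The values share the scaling of each library to its own total, and these coefficients are descriptions over 12 lungs. Leaving out control replicate 2, 2-week replicate 3 and 5-week replicate 3, r was 0.97 for Gucy1a1 with Pde5a, 0.95 for Gucy1a1 with Gucy1b1 and 0.91 for Gucy1b1 with Pde5a.

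**Figure D5:**
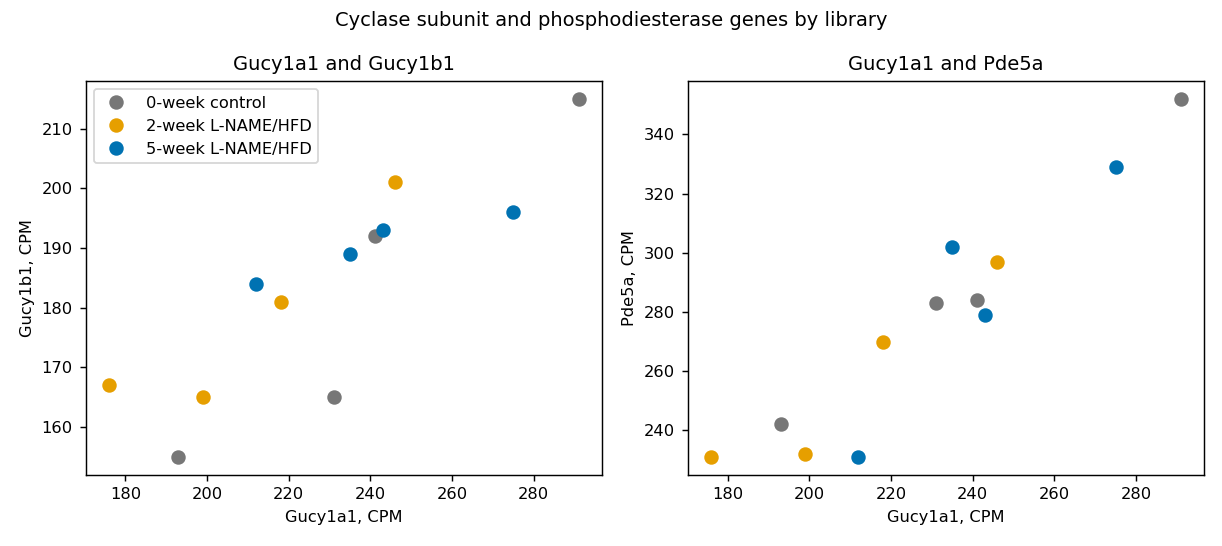
Gucy1b1 and Pde5a against Gucy1a1 in CPM, 1 point per mouse, coloured by 0, 2 and 5 weeks; the axes do not start at 0. Points run from low to high together in both panels, with control replicate 4 at the top (291 CPM of Gucy1a1, 215 CPM of Gucy1b1 and 352 CPM of Pde5a).

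The balance of the cyclase subunits, Gucy1a1 minus Gucy1b1 in log2(CPM + 1), was 0.26, 0.27, 0.07 and 0.29 at 2 weeks, against 0.32, 0.48, 0.33 and 0.43 in controls. All 4 mice at 2 weeks lay below the 4 controls, and no share of other gene pairs with such an order is given. The means differed by -0.17 ± 0.06 (SE; exact two-sided permutation p 0.0286, adjusted p 0.143). Without 2-week replicate 3, the library with skeletal muscle transcripts, the difference was -0.12, and without that library, control replicates 2 and 4 and 5-week replicate 3 it was -0.05. At 5 weeks the balance was 0.48, 0.32, 0.21 and 0.33, which overlapped the controls (difference -0.06 ± 0.07 SE; exact two-sided permutation p 0.457).

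Downstream of the cyclase, Prkg1 (ENSMUSG00000052920, chromosome 19, 30541889 to 31742433, minus strand) averaged 34.4 ± 5.06 CPM in controls, 34 ± 1.91 CPM at 2 weeks and 33.2 ± 6.39 CPM at 5 weeks (SD, n = 4 each). The 5-week spread came from replicate 3, whose 23.9 CPM was the lowest of the 12 libraries, while the other 3 mice of that group lay between 35.3 and 38.3 CPM. The log2 difference from controls was -0.01 ± 0.14 (SE) at 2 weeks and -0.06 ± 0.14 (SE) at 5 weeks (limma adjusted p 0.99 and 0.908). Cstf2t, with a mean of 39.6 CPM, lies on the other strand of the Prkg1 locus, so reads of the pair cannot be told apart where they overlap. Prkg1 and Nos3 had a Pearson r of 0.71 over the 12 libraries, which was 0.21 without the 2 libraries farthest from the median of Nos3.

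Pde5a read 242, 283, 284 and 352 CPM in the controls, 232, 270, 231 and 297 CPM at 2 weeks, and 329, 302, 231 and 279 CPM at 5 weeks. The groups overlapped, and the highest library was again control replicate 4. The log2 difference from controls was -0.17 ± 0.13 (SE) at 2 weeks and -0.03 ± 0.13 (SE) at 5 weeks (limma adjusted p 0.681 and 0.959).

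Prkg1 and Pde5a were also set against the mean of 12 smooth muscle genes, among them Acta2 and Myh11. That list summed to between 1241 and 1383 CPM in controls, between 1379 and 2014 CPM at 2 weeks and between 1101 and 1326 CPM at 5 weeks, and none of its 12 genes passed the adjusted threshold, although 10 of the 12 had an unadjusted limma p under 0.05 at 5 weeks against 2 weeks, all of them lower, beside 10.9% of all genes tested. Pde5a minus the list was 2.41, 2.17, 2.03 and 2.28 at 5 weeks and 1.47, 1.70, 1.35 and 2.11 at 2 weeks in log2(CPM + 1). The means differed by 0.57 ± 0.19 (SE; exact two-sided permutation p 0.0571, adjusted p 0.214), with 1 mouse at 2 weeks inside the 5-week range. For Prkg1 the difference of 5 weeks from 2 weeks was 0.38 ± 0.13 (SE; exact two-sided permutation p 0.0857, adjusted p 0.214), with 5-week replicate 3 inside the 2-week range. Against controls, Pde5a minus the list differed by -0.40 ± 0.20 (SE) at 2 weeks and by 0.17 ± 0.14 (SE) at 5 weeks (exact two-sided permutation p 0.114 and 0.286). For Prkg1 the differences from controls were -0.24 ± 0.11 (SE) at 2 weeks and 0.13 ± 0.15 (SE) at 5 weeks (exact two-sided permutation p 0.0857 and 0.4), and the groups overlapped in all 4 of these comparisons. The smooth muscle list itself had a median log2 difference of -0.43 between 5 and 2 weeks, beside 0.00 for all genes, and 0.32 between 2 weeks and controls, beside 0.02; its part in these values was not tested.

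The genes most like each of the other members were as follows, by Pearson r over 12 libraries. Nos3 went with Jag2, a Notch ligand (r 0.96), with Ctdspl (0.92) and with Hspa12b (0.91). Nos2 went with Kcnip4 (0.87), Csf1, the growth factor of macrophages (0.86), and Tbxa2r, the thromboxane receptor (0.85). Gucy1a1 went with Zfp758, Pde5a (0.94 each) and Dennd2a (0.92), Gucy1b1 with Zfp983 (0.94), Adcy8 (0.93) and Sav1 (0.90), and Pde5a with Gucy1a1 (0.94), Acvr2a and Zc3h18 (0.93 each). Prkg1 went with Fam53c (0.95), Afdn and Srgap2 (0.94 each). Ddah1 went with Zfp619 (0.87), Trim35 (0.86) and Ltbp2, a binding protein of the extracellular matrix (0.84). Ddah2 went with Myl6, a myosin light chain of non-muscle and smooth muscle cells, S100a16 and Stub1 (0.96 each). Arg2 went with Ap1m1 (0.93), Pdzd4 (0.91) and Rufy4 (0.88). The top genes of 15562 reach high coefficients over so few libraries, and no test was made of them.

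The wider pathway gave no called gene either. Of 66 listed genes, 64 were in the table and 58 were tested, and 0 passed the adjusted threshold of limma in any comparison. At an unadjusted p under 0.05, 8 of the 58 stood at 2 weeks against 0 weeks (5 higher, 3 lower), 9 at 5 weeks against 0 weeks (5 higher, 4 lower) and 6 at 5 weeks against 2 weeks (1 higher, 5 lower). The shares of all genes tested at such a p were 9.24%, 8.63% and 10.9% in the same order, and no difference from them was tested. The median log2 difference of the 58 genes was -0.03 for 5 weeks and -0.00 for 2 weeks against controls, and 0.03 for 5 weeks against 2 weeks, beside 0.02, 0.02 and 0.00 for all genes.

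By role, the 12 partners and trafficking proteins of the synthases had 2 genes at an unadjusted p under 0.05 at 2 weeks and 0 at 5 weeks against controls. The 6 tested genes of tetrahydrobiopterin, the synthase cofactor, had 0 and 2, the 10 of arginine supply and methylarginine handling 0 and 1, and the 8 of other guanylyl cyclases and natriuretic peptides 2 and 1. The 9 other phosphodiesterases of cGMP had 1 and 3, and the 13 other effectors and kinase substrates 3 and 2. At 5 weeks against 2 weeks these lists had 1, 0, 0, 1, 1 and 3 in the same order. With 9.24% of all genes at such a p at 2 weeks and 8.63% at 5 weeks against controls, and 10.9% at 5 weeks against 2 weeks, no list was tested against all genes.

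The smallest p among the wider genes belonged to Npr3, the clearance receptor of natriuretic peptides. It read 79, 72.6, 80.1 and 94.1 CPM at 2 weeks, against 105, 157, 169 and 279 CPM in controls. All 4 mice at 2 weeks lay below the controls, whose own values spread widely, and the same order was seen for 1.95% of all genes tested. The log2 difference was -1.03 ± 0.28 (SE; limma adjusted p 0.302). At 5 weeks Npr3 read 110, 145, 57.1 and 107 CPM, which overlapped the controls (log2 difference -0.74 ± 0.28 SE; limma adjusted p 0.545). Nosip, which binds the endothelial synthase, averaged 53.5 ± 3.82 CPM at 2 weeks and 46 ± 2.86 CPM in controls, and Fhod1, a formin, averaged 108 ± 3.31 CPM and 90.8 ± 9.8 CPM in the same order (SD, n = 4 each; limma adjusted p 0.437 for both).

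At 5 weeks against controls the smallest p belonged to Rgs2, a regulator of G protein signalling that the kinase phosphorylates, and to Slc7a1, an arginine transporter. Rgs2 averaged 111 ± 36 CPM at 5 weeks and 74.6 ± 20 CPM in controls, and Slc7a1 averaged 21.7 ± 3.96 CPM and 27.1 ± 1.46 CPM in the same order (SD, n = 4 each; limma adjusted p 0.543 for both). At 5 weeks against 2 weeks, Pde1c, a calmodulin-dependent phosphodiesterase, read 0.653, 0.539, 0.593 and 0.703 CPM at 5 weeks, against 1.34, 1.88, 1.47 and 1.13 CPM at 2 weeks. The groups did not overlap, as was so for 4.94% of all genes tested (log2 difference -0.59 ± 0.18 SE; limma adjusted p 0.29). By the estimated depth, the 5-week values of Pde1c stood for about 15 to 24 reads each. Kcnma1, the large-conductance potassium channel of smooth muscle, averaged 1.31 ± 0.474 CPM at 5 weeks and 2.46 ± 0.9 CPM at 2 weeks, and Irag1, a substrate of the kinase, averaged 12.1 ± 1.53 CPM and 16.1 ± 2.26 CPM in the same order (SD, n = 4 each; limma adjusted p 0.336 and 0.348). The smooth muscle list summed to at most 1326 CPM at 5 weeks and at least 1379 CPM at 2 weeks in the same libraries, and its part in these 3 values was not tested.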

How the data were processed

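Whole-lung RNA of 12 mice was sequenced, and the authors deposited CPM values, in 1 table with 0.0001 added to every cell. Per the submitters' processing notes, TopHat2, Partek and mm10 were used. Not given in the sources used here are versions, annotation, strand setting and filters. Gene starts matched GRCm38 for 501 of 23073 genes, so gene positions are those of the table, with ends as the stop minus 1, and promoter windows are from RefSeq GRCm38.p6. Of the low values, 87.3% to 88% lay within 0.1 of a whole read step, too few for exact reads to be recovered, so no count model or counting interval was used. Read numbers given here are estimates from that depth.

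Values were analysed as log2(CPM + 1) for genes averaging 1 CPM or more across all 12 libraries, a scale that understates changes of low genes. Limma 3.58.1 in R 4.3.3 fitted the 3 group means over all libraries with a variance trend, and p-values (two-sided) were adjusted by Benjamini-Hochberg over 15562 genes with a threshold of 0.05. The fit was tested on simulated data. The 5 within-library differences were tested in the 3 comparisons by exact permutation. Levels per kb use the union of GENCODE M21 exons. Groups and mouse numbers come from the labels, each library is taken as 1 mouse, and replicates 1 to 4 only name libraries. No pair of libraries was identical.

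The members and lists were chosen with earlier results of these data known; the skeletal muscle and liver lists were chosen after their values were seen. Named besides the members are, per comparison, the 3 wider pathway genes with the smallest p, and per member the 3 genes with the highest r, leaving out predicted genes. Alternatives were pseudocounts of 0.1 and 5, a mean of 10 CPM or no minimum as the filter, scaling by quantiles or by median-of-ratios, library weights, robust moderation, fits of 2 groups, a minimum log2 change of 1, the median of marker lists, and leaving out libraries singly and together. Python 3.11.15, scipy 1.17.1 and matplotlib 3.10.9 served for the other steps.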

Additional observations from a re-analysis of the deposited data

Results flagged for a closer look

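Among 45 groups of 4 mice examined (the 10 genes and 5 within-library differences in 3 groups), 3 held a value whose gap to the nearest other mouse was past Dixon's 95% critical value as a share of the group's range; chance gives such a gap in about 1 in 20 groups. Nos1 at 17.7 CPM in 2-week replicate 3 stood far above 0.312, 0.592 and 0.0665 CPM in the other mice of its group, and that library also held the skeletal muscle genes at 13525 CPM. Nos1 at 0.952 CPM in control replicate 2 stood above 0.164, 0.227 and 0.189 CPM in the other controls, and that library was second for skeletal muscle genes with 633 CPM. The Gucy1a1 to Gucy1b1 difference of 0.07 in 2-week replicate 3 stood below 0.26, 0.27 and 0.29 in its group. The part of the muscle transcripts in that difference was not tested.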

How the results depend on the processing

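None of the 10 genes passed the threshold under any alternative tried, so no call was gained or lost among them. Over all genes, library weights called 18 genes at 2 weeks against 0 weeks, 881 at 5 weeks against 2 weeks and 286 by the F-test, and leaving out control replicates 2 and 4, 2-week replicate 3 and 5-week replicate 3 together (chosen after seeing the data) called 1 at 5 weeks against 2 weeks and 1 by the F-test. Leaving out single libraries called from 0 to 24 genes at 2 weeks against 0 weeks, from 0 to 1 at 5 weeks against 0 weeks, from 0 to 386 at 5 weeks against 2 weeks and from 0 to 132 by the F-test. The 386 and 132 came without 2-week replicate 4 and the 24 without 5-week replicate 3; the cause was not tested. Of 672 alternative log2 differences of the members, 50 had the other sign, over 15 results, and so had 13 of 189 alternative within-library differences. None of these results was called. The 672 and the 50 take in Nos1, whose differences are not listed here, since it passed the filter through 1 library.

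With library weights the other sign was seen for Gucy1b1 (0.02) and Prkg1 (0.07) at 2 weeks against 0 weeks, for Prkg1 (0.12) and Pde5a (0.13) at 5 weeks against 0 weeks, and for Prkg1 (0.05) and Ddah1 (0.03) at 5 weeks against 2 weeks. Median-of-ratios scaling gave -0.002 for Gucy1a1 at 5 weeks against 0 weeks, and quantile scaling 0.02 for Gucy1b1 at 2 weeks against 0 weeks. A pseudocount of 0.1 gave 0.15 ± 1.08 (SE) for Nos1 at 5 weeks against 0 weeks. That Nos1 value is listed for its sign alone and is not read as a change, since the gene passed the filter through 2-week replicate 3 only. Without control replicate 2, 2-week replicate 3 and 5-week replicate 3, Prkg1 was at 0.07, Pde5a at 0.06 and Ddah2 at -0.04 at 5 weeks against 0 weeks, and Prkg1 at 0.10 and Ddah1 at 0.04 at 5 weeks against 2 weeks. There the Nos3 to endothelial value was 0.04 and the Ddah1 to Ddah2 value 0.20 at 5 weeks against 2 weeks, and the Gucy1a1 to Gucy1b1 value 0.02 at 5 weeks against 0 weeks. The median of the endothelial list gave 0.03 for Nos3 at 5 weeks against 2 weeks. Without control replicate 4 as well, values at 2 weeks against 0 weeks were 0.03 for Gucy1a1, 0.08 for Gucy1b1, 0.08 for Prkg1, 0.02 for Pde5a and -0.04 for Ddah2. At 5 weeks against 0 weeks they were -0.09 for Nos2, 0.18 for Prkg1, 0.20 for Pde5a, -0.20 for Ddah2, 0.05 for Gucy1a1 to Gucy1b1 and 0.11 for Ddah1 to Ddah2. At 5 weeks against 2 weeks they were 0.10 for Prkg1, 0.04 for Ddah1, 0.04 for Nos3 to endothelial markers and 0.20 for Ddah1 to Ddah2.

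Leaving out single libraries at 5 weeks against 0 weeks gave from -0.15 to 0.04 for Arg2, from -0.01 to 0.19 for Ddah2 and from -0.07 to 0.12 for Gucy1a1. In the same comparison it gave from -0.10 to 0.17 for Nos2, from -0.11 to 0.07 for Pde5a and from -0.14 to 0.09 for Prkg1. At 2 weeks against 0 weeks it gave from -0.10 to 0.05 for Ddah1, from -0.09 to 0.07 for Gucy1b1 and from -0.09 to 0.08 for Prkg1. At 5 weeks against 2 weeks it gave from -0.12 to 0.10 for Prkg1, from -0.13 to 0.05 for Nos3 to endothelial markers and from -0.18 to 0.14 for Ddah1 to Ddah2. With 3 against 4 mice the exact test cannot go below 0.0571. Nos1 has no value without 2-week replicate 3, and Nos1, Nos2 and Arg2 none with the filter of 10 CPM, since they then miss the filter.

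No paired analysis was possible because the labels give each mouse a number of its own and share none between groups. Nos1, at about 2 to 25 reads in 11 of 12 libraries, is limited by depth. Without control replicate 1, 1 gene passed at each of 2 and 5 weeks against 0 weeks; it was none of the 10.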
